A study of Saccharomyces cerevisiae with 6 samples.

Results

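The genes described here are DAN1, DAN4, TIR1, TIR2, TIR3 and TIR4, 6 of the 5449 genes measured, which code for the anaerobic mannoproteins of the yeast cell wall. They were taken by gene symbol from the platform annotation, and each had 1 probe set, of the kind whose identifier carries no mark for shared targets. The study exposed Saccharomyces cerevisiae BY4743, a diploid strain that needs histidine, leucine and uracil, to linoleic acid hydroperoxide (LoaOOH), an oxidation product of a polyunsaturated fatty acid. Cultures grown from a single colony in minimal medium at 30 °C, with orbital shaking, received 75 µM LoaOOH or the same volume of its solvent, methanol, at an OD600 of 1.0 and were collected 1 h later. There were 3 replicate cultures per group, each measured on 1 Affymetrix Yeast Genome 2.0 array. The dose is labelled as an arresting one, and no oxygen level is labelled.

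DAN and TIR proteins are serine-rich, heavily mannosylated proteins that are attached to the wall through a glycosylphosphatidylinositol (GPI) anchor. In well-aerated cells haem keeps their genes repressed, and in cells without oxygen they come on as the aerobic wall proteins Cwp1 and Cwp2 decline. Upc2 activates the genes, and Rox1 and Mot3, working with the corepressor of Tup1 and Cyc8, repress them. Upc2 is also an activator of sterol synthesis and sterol uptake, which connects this group of wall proteins to membrane lipids. TIR1 and TIR2, like their relative TIP1, are also known to respond to cold.

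After LoaOOH the group moved in both directions. TIR1, TIR3 and TIR2 rose by 2.39-fold, 2.15-fold and 1.38-fold, whereas DAN4 and TIR4 fell by 2.45-fold and 2.38-fold (n = 3 per group). DAN1 lay among the negative control probe sets in both groups and was not called. Of the 6 genes 5 passed the test, where 78.7% of all 5498 probe sets did. The 3 that rose stand beside 36.8% of all probe sets called higher and the 2 that fell beside 41.9% called lower, so neither share sets the group apart. In size, 4 of the 6 changed by at least 2-fold in the values as deposited, and 9.17% of all probe sets did so. That count depends on the scaling. With arrays scaled to the spike-in controls described below, DAN4 and TIR4 were under 2-fold (-0.77 and -0.73 on the log2 scale). TIR1 and TIR3 stayed beyond it (1.77 and 1.62). The share of all probe sets beyond 2-fold was not worked out for that scaling, which raised every difference by the same amount. The test was limma across all 5498 probe sets, with a call at a Benjamini-Hochberg adjusted p under 0.05, and values are signals on the log2 scale made by the robust multi-array average (RMA). In a bulk culture, a change in how many cells hold a message and a change in how much each cell holds cannot be told apart.

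**Figure D1:**
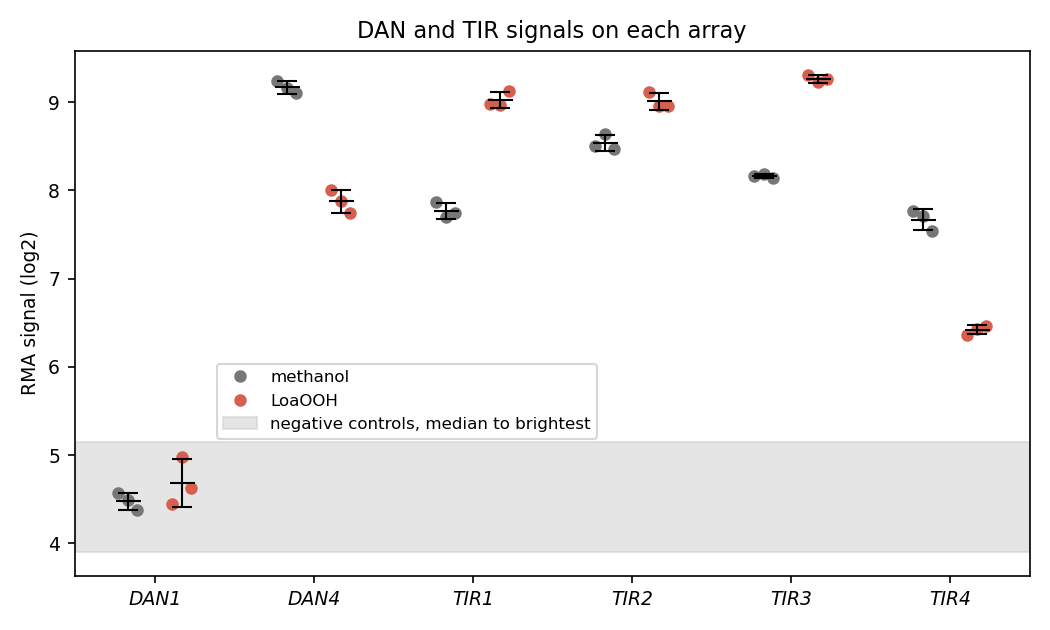
RMA signal (log2, vertical axis) of each DAN and TIR gene on every array, grey for methanol and red for LoaOOH, with the mean and SD of 3 arrays as black bars. The shaded band runs from the median (3.90) to the brightest (5.146) of the negative control probe sets. DAN1 lies inside the band, and in the 5 other genes the groups are apart.

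TIR1, also known as SRP1, codes for a wall mannoprotein that cells need to grow without oxygen. Its signal was 7.87, 7.70 and 7.74 on the methanol arrays and 8.98, 8.97 and 9.13 on the LoaOOH arrays. Every LoaOOH array was higher than every methanol array. The difference was 1.25 on the log2 scale (SE 0.0633, adjusted p = 1.97e-07), a 2.39-fold rise with a 95% interval of 2.16 to 2.64. Of all probe sets 2.98% had a more positive difference.

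TIR3, formerly YIB1, is likewise needed for anaerobic growth. It gave 8.17, 8.19 and 8.14 with methanol and 9.31, 9.23 and 9.26 with LoaOOH. The replicates of this gene were the tightest of the 6, with an SD of 0.0241 in methanol and 0.0434 in LoaOOH, and the groups did not overlap. The difference was 1.10 (SE 0.0431, adjusted p = 4.52e-08), or 2.15-fold with an interval of 2.01 to 2.30.

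TIR2, or SRP2, is a close relative of TIR1. It read 8.50, 8.64 and 8.47 in methanol and 9.11, 8.96 and 8.96 in LoaOOH. The groups were again apart, by a narrower margin. The difference was 0.47 (SE 0.0636, adjusted p = 0.000117), a 1.38-fold rise with an interval of 1.25 to 1.53, and 16.8% of all probe sets had a more positive one. When the test asked for a difference beyond 0.5 on the log2 scale, TIR2 lost its call while TIR1, TIR3, TIR4 and DAN4 did not. That test called 1221 of all 5498 probe sets.

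DAN4 codes for the longest protein of the group, with a coding length of 3486 bases in the RefSeq annotation against 756 to 1464 for the others. Its signal was 9.24, 9.16 and 9.10 with methanol and 8.01, 7.88 and 7.75 with LoaOOH. All LoaOOH arrays lay below all methanol arrays. The difference was -1.29 (SE 0.0692, adjusted p = 2.9e-07), a 2.45-fold fall with an interval of 2.20 to 2.73, and 1.91% of all probe sets had a more negative difference.

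TIR4, the third of the TIR genes needed for growth without oxygen, gave 7.76, 7.71 and 7.54 in methanol and 6.37, 6.43 and 6.47 in LoaOOH. It fell on every LoaOOH array relative to every methanol array. The difference was -1.25 (SE 0.0634, adjusted p = 2.03e-07), a 2.38-fold fall with an interval of 2.15 to 2.63. In LoaOOH its mean stood 1.28 log2 units above the brightest negative control, the smallest margin of the 5 genes that lay above that level.

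DAN1, a wall mannoprotein gene strongly induced when oxygen is removed, read 4.57, 4.49 and 4.38 with methanol and 4.45, 4.98 and 4.62 with LoaOOH. The groups overlapped, and LoaOOH replicate 2 was the high array. The difference was 0.21 (SE 0.118, 95% interval -0.06 to 0.48, adjusted p = 0.134), and no fold is given because both group means lay below the brightest negative control, at 5.146. Between 1 and 6 of the 23 negative controls were brighter than DAN1 on a given array, and DAN1 stood 0.57 above their median in its lower group. Without LoaOOH replicate 1 it was called (0.32, adjusted p = 0.0206) and without LoaOOH replicate 2 the difference was 0.06 (adjusted p = 0.484).

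Controls bear on the scaling of these values. The poly-A spike-ins are bacterial transcripts that are mixed into each RNA sample, and their 36 probe sets averaged 7.44 ± 0.165 (SD, n = 3) on the methanol arrays and 6.93 ± 0.125 on the LoaOOH arrays (exact permutation p = 0.1, two-sided, the smallest that 3 against 3 arrays allow). The 17 ribosomal RNA probe sets were all lower, by a mean of -0.64 (exact p = 0.1), whereas hybridisation controls, added after labelling, differed by -0.02 (exact p = 0.8) and the 23 negative controls by -0.03 (exact p = 0.4). Control probe sets for URA3, which the strain lacks, ran from 3.44 to 3.94. Array medians lay between 10.588 and 10.628.

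When each array was scaled to its spike-ins, every difference moved up by the same amount and the median of all probe sets went from -0.03 to 0.48. In that scaling TIR1, TIR3 and TIR2 were higher by 1.77, 1.62 and 0.99 on the log2 scale, and DAN4 and TIR4 were still lower, at -0.77 and -0.73. The groups did not overlap for any of these 5 genes in either scaling. In the deposited scaling 81.1% of all probe sets had groups apart, and this share was not worked out for the spike-in scaling. DAN1 moved to 0.73 and its groups were then apart too, with its signal still among the negative controls. Of all probe sets 65.9% were called higher and 7.68% lower after spike-in scaling, so DAN4 and TIR4 then belonged to the smaller side.

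**Figure D2:**
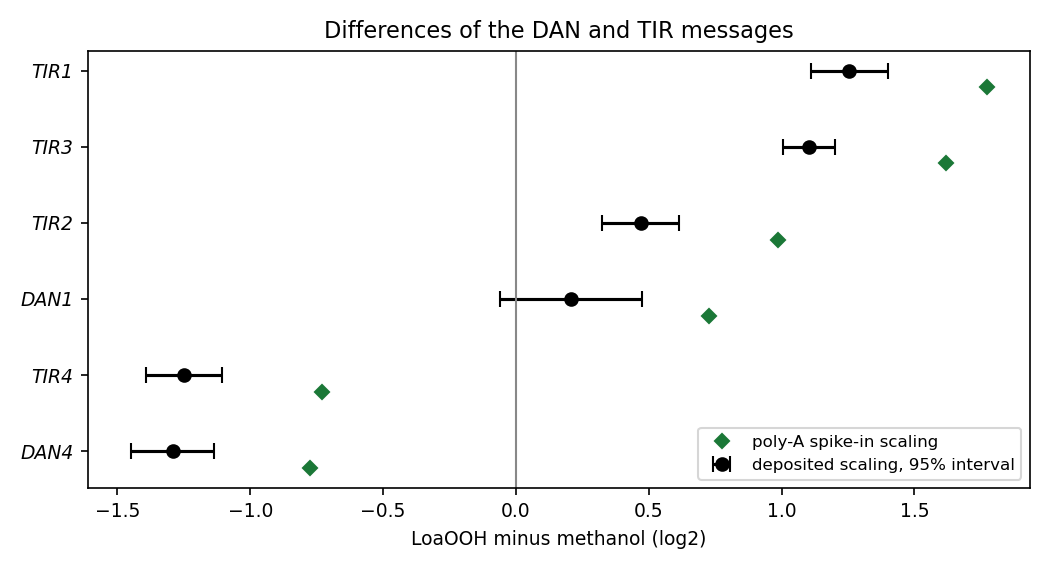
Difference LoaOOH minus methanol (log2, horizontal axis) of each gene, from 3 arrays per group. Black points with bars are the deposited scaling with 95% intervals from limma, and green diamonds are the poly-A spike-in scaling. TIR1, TIR3 and TIR2 lie to the right of 0 and TIR4 and DAN4 to the left in both scalings, and the interval of DAN1 spans 0 in the deposited scaling.

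The difference between the signals of a pair of these genes on the same array cannot be moved by any shift of a whole array. This comparison was added after the values were seen. It covered all 15 pairs, with an exact two-sided permutation test over the 6 arrays whose smallest p is 0.1, or 0.125 after Benjamini-Hochberg adjustment over the 15, so no pair could pass the threshold. In 12 of the 15 pairs the groups did not overlap, where 81.3% of all pairs of probe sets on the array showed the same. DAN1, at the level of the negative controls, enters 5 of the 15 pairs and 4 of the 12, and without it 8 of 10 pairs were apart.

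TIR1 minus TIR4 was 0.11, -0.01 and 0.20 on the methanol arrays and 2.61, 2.54 and 2.66 on the LoaOOH arrays. The balance of these messages thus moved by 2.50 log2 units, a 5.67-fold change in their ratio (exact p = 0.1). TIR2 minus TIR4 moved from 0.869 ± 0.113 to 2.59 ± 0.141 (SD, n = 3), and DAN4 minus TIR1 moved furthest, from 1.40 ± 0.0596 to -1.15 ± 0.209, each with an exact p of 0.1. Within the genes that rose, TIR2 rose less than TIR1 by 0.79 and less than TIR3 by 0.63, and the groups did not overlap in either pair (exact p = 0.1 each).

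For 2 pairs of called genes the groups overlapped. TIR1 minus TIR3 changed by 0.15 (exact p = 0.2), with SDs of 0.1004 in methanol and 0.102 in LoaOOH. DAN4 minus TIR4 was 1.48, 1.45 and 1.56 in methanol and 1.64, 1.44 and 1.28 in LoaOOH, a change of -0.04 (exact p = 0.7). In the order of the differences, TIR1 and TIR3 at the top and TIR4 and DAN4 at the bottom were therefore not separated beyond the spread between arrays.

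**Figure D3:**
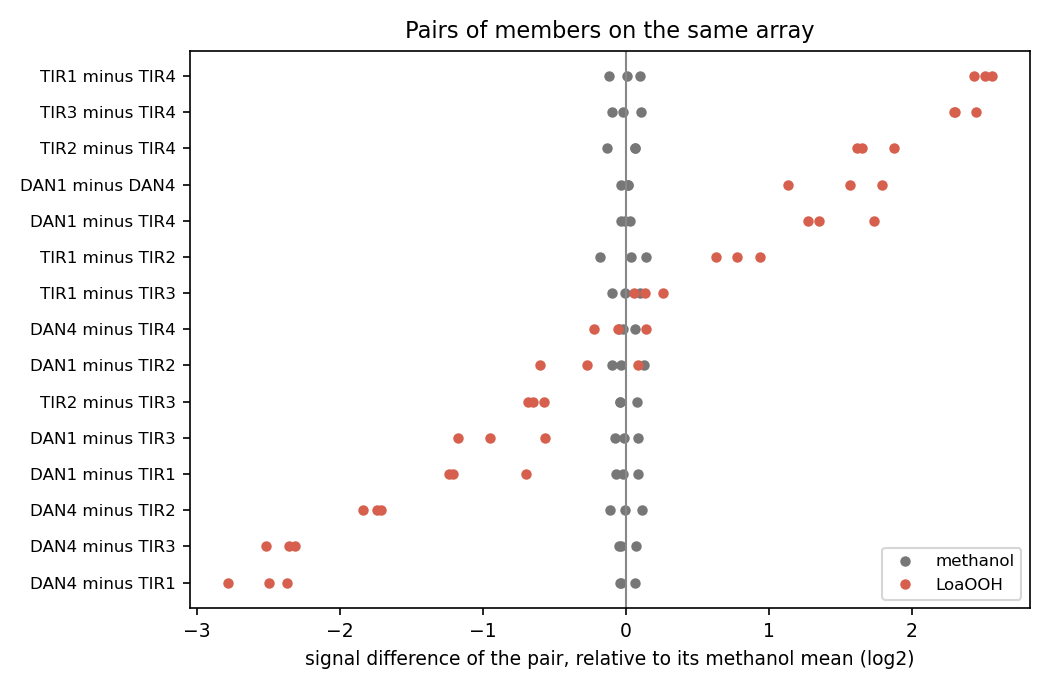
Difference between the signals of a pair of genes on the same array (log2, horizontal axis), with the mean of its 3 methanol arrays set to 0. Grey points are methanol arrays and red points LoaOOH arrays. Pairs that join a riser with TIR4 or DAN4 lie furthest from 0, and TIR1 minus TIR3, DAN4 minus TIR4 and DAN1 minus TIR2 overlap with methanol.

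On the chromosomes the 6 genes include a pair of direct neighbours on chromosome X, DAN1 and DAN4, and another on chromosome XV, TIR4 and TIR2. TIR2 and TIR4 are on opposite strands and moved in opposite directions, at 0.47 and -1.25. TIR2 has on its other side AUS1, which takes up sterols when cells lack oxygen, and AUS1 was not called (0.04, adjusted p = 0.53), though the spike-in scaling called it higher at 0.55. TIR3, on chromosome IX, is separated by 1 annotated gene from PDR11, the partner of AUS1 in sterol uptake, and PDR11 rose by 0.99 (SE 0.0402, adjusted p = 5.51e-08). The neighbour of TIR3 on the other side, DOT5, a nuclear thiol peroxidase, rose by 0.59 (adjusted p = 6.97e-06). Next to TIR1 on chromosome V, YER010C rose by 0.54. On the other side of TIR1, beyond 1 annotated gene, PRE1, a proteasome subunit, was not called (0.06, adjusted p = 0.237). YJR149W beside DAN1 was not called (0.09, adjusted p = 0.0553), and neither were YJR151W-A beside DAN4 and YOR008C-A beside TIR4, whose signals lay below the brightest negative control. Like AUS1, PRE1, YJR149W, YJR151W-A and YOR008C-A moved up in the spike-in scaling, to 0.58, 0.61, 0.39 and 0.35.

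Each gene's pattern over the 6 arrays, centred on its methanol mean, was set against that of every gene outside the group by Euclidean distance. That measure mostly follows the size of the group difference. The 6 members were not ranked against one another. The nearest to TIR3 were FSF1 and XDJ1, at distances of 0.0470 and 0.0578 log2 units. YAP5 and LEU4 were nearest to TIR1 (0.0995 and 0.1295), and RSE1 and SUT2 to TIR2 (0.0869 and 0.0935). ZDS1 and GAD1 were nearest to DAN4 (0.0922 and 0.1151), and PMT3, a protein O-mannosyltransferase, and YSW1 to TIR4 (0.112 and 0.113). For DAN1 the nearest, HDA3 and PGM2, were more distant (0.25 and 0.264). As the signal of DAN1 lay among the negative controls, no likeness can be read from its distances.

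Among 10 regulators of the DAN and TIR genes and of other oxygen-controlled genes, 5 rose, 3 fell and 2 were not called, beside 36.8% of all probe sets higher and 41.9% lower (median 0.20, against -0.03 over all probe sets). In the spike-in scaling 8 were called higher and 1 lower, beside 65.9% and 7.68%. ROX1, the repressor of hypoxic genes, read 10.48, 10.25 and 10.17 in methanol and 12.50, 12.29 and 12.31 in LoaOOH, and rose by 4.18-fold (log2 difference 2.06, SE 0.0869, adjusted p = 6.9e-08). UPC2, the activator, gave 9.32, 9.26 and 9.36 against 10.60, 10.73 and 10.69, a difference of 1.36. Thus the messages for a repressor and for the activator of the same genes were both higher in every LoaOOH array. ECM22, the paralogue of UPC2, rose by 0.51, SUT1, which promotes sterol uptake, by 0.55, and SPT23, a membrane-bound activator of the fatty acid desaturase gene, by 0.45.

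The corepressor subunits fell, TUP1 by 0.81 (adjusted p = 2.16e-06) and CYC8 by 0.72 on the log2 scale (adjusted p = 4.4e-05). In the spike-in scaling TUP1 was at -0.29 and CYC8, at -0.20, was not called (adjusted p = 0.164). MOT3 (-0.04, adjusted p = 0.612) and MGA2 (-0.12, adjusted p = 0.106) were not called, and the spike-in scaling turned both positive. HAP1, the haem-responsive activator whose gene carries a transposon insertion in the ancestor of this strain, was barely called (-0.14, adjusted p = 0.0464). It lost that call without any 1 of methanol replicates 1 and 2 or the 3 LoaOOH replicates (adjusted p from 0.0694 to 0.166) and with quantile normalisation or centring (0.0565 and 0.113), and was positive in the spike-in scaling.

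Among the wall proteins that the DAN and TIR proteins replace when oxygen is lacking, CWP1 rose and CWP2 was not called. CWP1 gave 12.01, 12.10 and 11.98 in methanol and 12.68, 12.92 and 12.83 in LoaOOH, a 1.72-fold rise (log2 difference 0.78, SE 0.0649, adjusted p = 4.6e-06). CWP2 differed by 0.01 (SE 0.039, adjusted p = 0.791) at a mean of 14.67 in methanol, near the highest value in the table, 15.14, and the spike-in scaling called it higher at 0.53. TIP1, a wall mannoprotein related to TIR1 and TIR2, rose by 0.38 (SE 0.0664, adjusted p = 0.000653). CWP1 thus rose together with TIR1, TIR2 and TIR3, while DAN4 and TIR4 fell.

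Seripauperins are short proteins related to the DAN and TIR mannoproteins, coded by a family of nearly identical genes, many of them near chromosome ends and induced without oxygen. Of 24 such genes 13 had a probe set whose annotation names 1 gene, 16 such probe sets in all. Probe sets annotated to several genes were left out, so the other genes of the family may still be on the array. A mark for shared targets is carried by 13 of the 16, so that members of the family cannot be told apart with certainty. Of the 16, 9 were called higher, 6 lower and 1, for PAU7, was not called (median 0.15), beside 36.8% of all probe sets higher and 41.9% lower. PAU24, once named DAN3, rose by 0.94 (SE 0.071), PAU2 by 0.63, and PAU17 by 0.52 and 0.68 on its separate probe sets. PAU21 fell by 0.82 on the log2 scale (SE 0.134). The mean of PAU24 in methanol, 5.62, and that of PAU21 in LoaOOH, 5.55, lay near the brightest negative control, at 5.146. In the spike-in scaling 10 of the 16 were called higher and 1 lower, beside 65.9% and 7.68%.

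**Figure D4:**
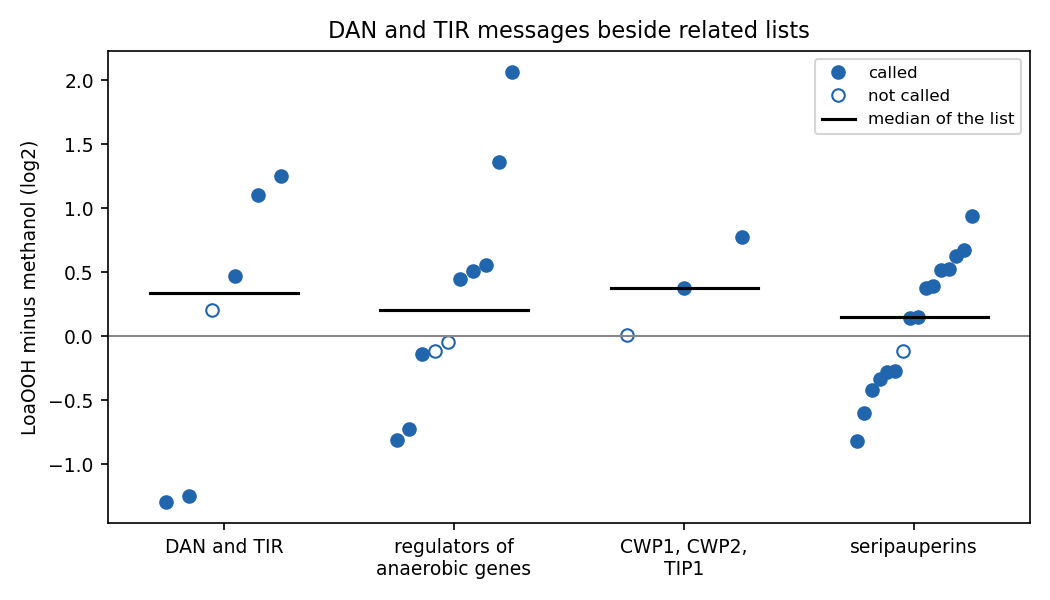
Difference LoaOOH minus methanol (log2, vertical axis, deposited scaling) of each probe set in 4 lists, filled where called and open where not, with the median of each list as a black line. The DAN and TIR genes span -1.29 to 1.25, and the regulators reach 2.06 with ROX1.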

How the data were processed

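Total RNA from the 6 cultures was labelled with biotin and hybridised to 1-colour Affymetrix arrays, per the labels' protocols. The authors deposited log2 signals. RMA and Partek are named in the submitters' processing notes, with versions and the probe mask not given in the sources used here. RMA includes quantile normalisation, which hides a change shared by most messages. Replicates are described in the labels as biological. If their aliquots shared a parent culture, the p-values measure a partly technical spread.

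Of 5900 probe sets, 184 controls were left out, with 218 that did not name exactly 1 gene, called unnamed here. The other 5498, for 5449 genes, were fitted in limma 3.58.1 under R 4.3.3 (lmFit and eBayes, two-sided). Precision is limited by the number of arrays (median SE of a difference 0.0527). Negative controls were the 23 probe sets for tag sequences and the unused trp transcript. The members, the lists and the rules for naming genes (all 6 members, all regulators and aerobic wall proteins, and in other lists the 4 with the largest called differences plus the uncalled where they number 5 or fewer, with chromosome neighbours and the 2 nearest patterns of each member) were chosen with earlier results of these data known. FIT1 is named beyond these rules, beside FIT2 and FIT3. Names, neighbours and coding lengths came from the RefSeq table of assembly R64. Positions are not given, as no build is named for the array. On simulated data for this comparison (5498 probe sets), 56% of 50 probe sets changed by 0.25 were called and 94% of those changed by 0.5. All of those changed by 1 or 2 were called, with 7 of 5298 unchanged ones called. The simulation drew independent noise and left 5298 of 5498 probe sets unchanged, whereas 78.7% were called in the data. Its rates may therefore not hold for the data.

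Alternatives were quantile normalisation, centring, spike-in scaling, a variance trend with robust fit, no moderation, array weights, a filter on dim probe sets, leaving out probe sets with shared targets, adding unnamed ones, a stricter adjusted p (0.01), a treat test against 0.5, a replicate block and each array left out. In the spike-in scaling the shift of an array is shared by all its probe sets but is fitted as if independent, so its adjusted p-values are too small for single genes.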

Additional observations from a re-analysis of the deposited data

How the results depend on the processing

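TIR1, TIR3, DAN4 and TIR4 kept their direction and their call in every alternative that gave them a value, with differences apart from the spike-in scaling of 1.20 to 1.31, 1.08 to 1.14, -1.36 to -1.23 and -1.32 to -1.20. TIR2 ranged from 0.38 to 0.52 and lost its call only in treat against 0.5, where its adjusted p was 1. DAN1 was called in the spike-in scaling, with array weights, whose estimation stopped short of its tolerance (0.23, adjusted p = 0.0423), and without LoaOOH replicate 1. The number of members called was 4 to 6, and 5 to 6 with 1 array left out. The cause of these changes was not tested. All 6 members lay among the dimmest 25% of probe sets, so the filter on dim probe sets gave them no value. Against the median negative control instead of the brightest, 6 members rather than 5 lay above the bound. The added member was DAN1, 0.57 above that median, and its signal still lay among the negative controls. Over all probe sets 4327 were called, 4053 to 4279 with 1 array left out, and 1221 by treat, which asks for larger changes. In the spike-in scaling 89.6% of calls were higher, against 46.7% in the deposited scaling. Among the genes named under the rules above, the spike-in scaling reversed MOT3 (0.47), HAP1 (0.38), MGA2 (0.40), PAU7 (0.40), COX5B (0.16), HYP2 (0.49) and OLE1 (0.16). Reversed means a change of sign with a call in either scaling, and of these genes only HAP1 was called in both. Genes of the lists that are not named also changed sign, since every difference moved up by the same amount. Whether replicate numbers pair the samples was not settled. Deviations from the group means correlated at 0.31, 0.0491 and 0.258 for equal numbers and at -0.297 to 0.133 for unequal ones. LoaOOH replicate 2 correlated best with methanol replicate 3 (0.133). With the replicate block 5 members and 4453 probe sets were called.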

Other observations

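Of 10 genes that form 5 pairs of a hypoxic and an aerobic isoform, 6 rose, 1 fell and 3 were not called (median 0.27), beside 36.8% of all probe sets higher and 41.9% lower. After spike-in scaling 9 were called higher and COX5B was not called, beside 65.9% and 7.68% of all probe sets higher and lower. Both cytochrome c genes rose, the hypoxic CYC7 by 0.81 and the aerobic CYC1 by 0.91. HMG1, a sterol pathway reductase, rose by 0.60 on the log2 scale. COX5B, the hypoxic subunit of cytochrome oxidase, fell by 0.36 in the deposited scaling and was at 0.16 in the spike-in scaling. The ADP/ATP carriers AAC3 (0.04) and PET9 (0.08) and the translation factor gene HYP2 (-0.02) were not called. The spike-in scaling called all of these higher (0.56, 0.60 and 0.49), and PET9 was also called with quantile normalisation, centring, a variance trend or no moderation (adjusted p = 0.0135 to 0.032). Of 6 further hypoxic genes 3 rose, 2 fell and AUS1 was not called, and in the spike-in scaling 4 were called higher, AUS1 among them (0.55), and 1 lower. The shares over all probe sets are those given above. PDR11 rose by 0.99 and ARE1, which esterifies sterols, by 0.60, while FET4, a low-affinity metal transporter, fell by 1.04. OLE1, the fatty acid desaturase, fell by 0.36 in the deposited scaling and was at 0.16, not called, in the spike-in scaling.

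Of 21 other covalently bound wall proteins measured, 5 rose, 9 fell and 7 were not called, with a median of -0.01, beside 36.8% of all probe sets higher and 41.9% lower. FIT2 and FIT3, which hold siderophore iron in the wall, rose by 5.57 and 1.53, and TOS6 and CIS3 fell by 2.63 and 0.92 on the log2 scale. FIT1, of the same family as FIT2 and FIT3, went the other way. It fell by 0.54 (adjusted p = 0.000647 in limma) and was at -0.03, not called, in the spike-in scaling. After spike-in scaling 13 of the 21 were called higher and 3 lower, beside 65.9% and 7.68%.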
